A study of Mus musculus with 16 samples.

Results

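The 7 genes described here encode the core of MHC class II antigen presentation: H2-Ab1, H2-Aa and H2-Eb1, which encode class II chains, H2-DMa and H2-DMb1, the chains of the peptide-exchange factor H2-M, Cd74, the invariant chain, and Ciita, the class II coactivator. All 7 were found among the 21887 protein-coding genes of the annotation. Peaks were collected over each gene body with 10 kb on either side, called its locus here, on the mm10 genome. These loci held 78 of the 130097 peaks on assembled chromosomes. Peaks that shared at least 1 bp were merged, which gave 16 regions at the loci out of 34234 in the genome, with 1 region that lies in 2 loci counted once.

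Binding was profiled by CUT&Tag, in which an antibody guides a transposase to the DNA around a bound factor, in MPP3 cells, a myeloid-biased multipotent progenitor sorted from mouse bone marrow. Bcl11a, a zinc finger transcription factor, was profiled in WT-iMOS mice (3 T2 and 3 T1 libraries). Spi1 (PU.1), an ETS factor of myeloid and lymphoid cells, was profiled in KO-iMOS mice (2 T2 and 2 T1 libraries) and in WT-iMOS mice (3 T2 and 3 T1 libraries). The study asked how Bcl11a acts in MPP3 cells. The labels do not explain iMOS, T1, T2 or the 3m in every title, do not name the gene that KO refers to, and do not say whether replicates came from separate animals, so p-values measure only the spread between these libraries. Peak names inside the lists begin with PKO in KO-iMOS T2 and with PWT in KO-iMOS T1. In WT-iMOS they begin with BMG (Bcl11a) or PMG (Spi1) in T2 and with BWG or PWG in T1. These letters are not explained, and groups here follow the labels. If the KO-iMOS T1 cells do not carry the deletion, the pooled KO-iMOS values join different kinds of cells, so counts are also given by T. Whether the WT-iMOS values, pooled over T in the same way, join different kinds of cells is not known either. Peak lists of a sorted population hold no expression, so neither the cell type nor the deletion could be checked by its marker genes.

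Class II molecules are alpha-beta dimers that show peptides from endocytosed proteins to CD4+ T cells. The invariant chain, Cd74, fills the groove of new dimers, and H2-M exchanges its remnant for peptide. Their promoters share an SXY module, bound by RFX, CREB and NF-Y factors, onto which Ciita is recruited. Class II is best known from B cells, dendritic cells and macrophages, and PU.1 is known to act at a promoter of Ciita used in myeloid cells.

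RefSeq promoter windows (GRCm38.p6) were matched for 4 of the 7 genes, H2-DMa being the one not shown. The 250 bases before the annotated start are shown for H2-DMb1 and H2-Aa, where Spi1 peaks of 2 and of 1 KO-iMOS libraries reached the window, and for H2-Eb1, where none was called. Capitals mark matches on either strand to GAGGAA (a PU.1 core), TGACCA (a motif reported for human BCL11A), CCAAT (the NF-Y core of the Y box) or TGACGTCA (a cAMP response element). All are 5′ to 3′ on the strand of the gene.
H2-DMb1, chr17:34152941-34153190, plus strand: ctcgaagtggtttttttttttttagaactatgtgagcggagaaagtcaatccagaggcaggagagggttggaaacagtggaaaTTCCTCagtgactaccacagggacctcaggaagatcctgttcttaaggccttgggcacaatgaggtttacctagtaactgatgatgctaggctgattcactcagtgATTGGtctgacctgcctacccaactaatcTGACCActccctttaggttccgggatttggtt
H2-Aa, chr17:34287824-34288073, minus strand: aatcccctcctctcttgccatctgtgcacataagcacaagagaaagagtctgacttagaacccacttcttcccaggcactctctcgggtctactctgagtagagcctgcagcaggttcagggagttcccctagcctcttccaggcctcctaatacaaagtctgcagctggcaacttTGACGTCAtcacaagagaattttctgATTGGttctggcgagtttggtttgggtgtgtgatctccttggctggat
H2-Eb1, chr17:34305617-34305866, plus strand: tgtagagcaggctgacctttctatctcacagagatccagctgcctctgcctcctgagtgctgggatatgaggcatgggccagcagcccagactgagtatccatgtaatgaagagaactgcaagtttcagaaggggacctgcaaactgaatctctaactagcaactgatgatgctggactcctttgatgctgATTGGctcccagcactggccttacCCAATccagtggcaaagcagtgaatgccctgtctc
CCAAT was present in each of them and in 33.8% of 32851 such windows genome-wide. GAGGAA and TGACCA occurred in H2-DMb1 (23.3% and 11.4% of windows) and TGACGTCA in H2-Aa (1.55%). The motifs were chosen with these sequences in view, do not overlap each other here, and are a description of letters, not of bound sites.

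At the class II loci, 4 regions held Spi1 in all 10 Spi1 libraries, and Bcl11a in 1, 3, 0 and 3 of its 6 libraries. In that order, they lay between H2-Aa and H2-Eb1, at the lower end of H2-DMb2, and at 2 places inside Cd74. A Spi1 peak in all 10 libraries was found for 4.37% of the 34234 regions. No region at any member locus had Bcl11a in every library, against 2.57% of all regions. Spi1 in every library of its genotype was found at 4 of the 16 in KO-iMOS (14.6% of all regions) and at the same 4 in WT-iMOS (7.04%).

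By gene, 4 of the 7 members had Bcl11a at the locus in 2 or more libraries (25.3% of all genes). Spi1 did so at 5 of 7 in KO-iMOS (49.8% of all genes) and at 4 of 7 in WT-iMOS (33.5%). Counting a single library as enough, Bcl11a was found at 4 of 7 (39.5% of all genes), and Spi1 at 6 of 7 in KO-iMOS (60.2%) and 5 of 7 in WT-iMOS (44.9%). Among the 11958 genes with loci of 25080 to 71051 bp, the range of the members, the shares for 2 or more libraries were 25.5% for Bcl11a, 54.1% for Spi1 in KO-iMOS and 33.8% for Spi1 in WT-iMOS. Bcl11a was called in every library at 0 of 7 members (3.54% of all genes), and Spi1 at 4 of 7 in KO-iMOS (22.3%) and at 3 of 7 in WT-iMOS (10.4%). The 3 were H2-Aa, H2-DMa and Cd74, and H2-DMb1 was the further one in KO-iMOS. The members are few and 5 of them are neighbours on chromosome 17, so they are not independent of each other. For Bcl11a, H2-DMb1 counted only through a region that its locus shares with H2-DMa. The other Bcl11a peaks at H2-DMa lay in regions that also overlap the neighbouring gene Brd2.

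**Figure D1:**
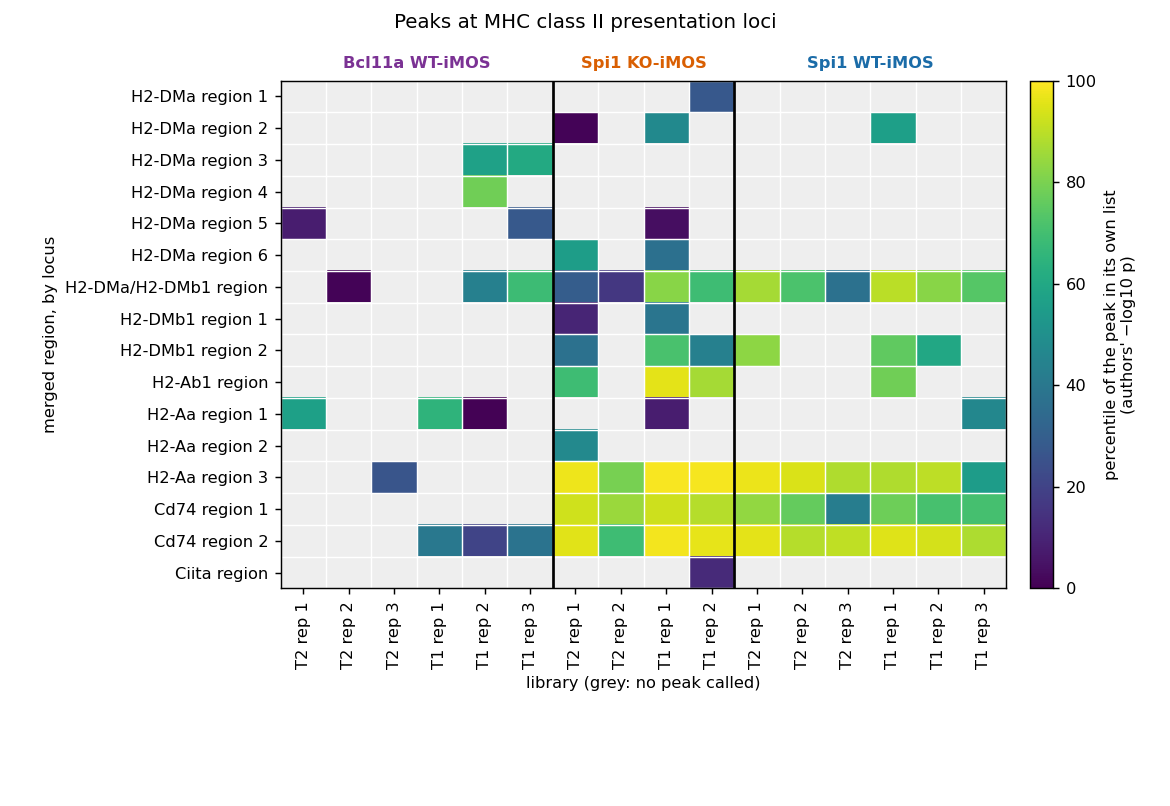
Each row is 1 of the 16 merged regions at the class II loci, numbered by position within a locus, and each column is 1 library, grouped as Bcl11a WT-iMOS, Spi1 KO-iMOS and Spi1 WT-iMOS. Colour gives the percentile of the peak within its own list by the authors' −log10 p, and grey means no peak. The 4 regions with Spi1 in all 10 libraries form unbroken rows in the Spi1 columns.

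H2-Ab1 (chromosome 17, 34263227 to 34269418) encodes the beta chain of the I-A molecule. Its locus held a single region, at chromosome 17, 34257484 to 34258102, 5125 bp from the lower end of the gene and outside any protein-coding gene. Bcl11a was called there in 0 of 6 libraries. Spi1 was called in 1 of 2 KO-iMOS T2 and 2 of 2 KO-iMOS T1 libraries, against 0 of 3 WT-iMOS T2 and 1 of 3 WT-iMOS T1 libraries. The KO-iMOS peaks stood at percentiles 69.0, 95.7 and 86.4 of their lists by the authors' −log10 p, and the WT-iMOS peak at 78.5. The difference in the share of libraries, 0.58, did not pass (Fisher's exact test, Benjamini-Hochberg adjusted p = 0.377 over regions). Their 4 summits fell within 49 bp.

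H2-Aa (chromosome 17, 34282744 to 34287823) encodes the I-A alpha chain and had 3 regions. The region between it and H2-Eb1, at chromosome 17, 34293346 to 34294161 (H2-Aa region 3), sits in intergenic sequence, 5523 bp from H2-Aa. Bcl11a was called there in 1 of 3 T2 and 0 of 3 T1 libraries, at percentile 26.4. Spi1 was called in 2 of 2 KO-iMOS T2, 2 of 2 KO-iMOS T1, 3 of 3 WT-iMOS T2 and 3 of 3 WT-iMOS T1 libraries. In the KO-iMOS T2 lists its Spi1 peaks ranked at percentiles 97.5 and 79.4, and in the KO-iMOS T1 lists at 99.2 and 98.6. The WT-iMOS T2 peaks ranked at 97, 94.2 and 88.1, and the WT-iMOS T1 peaks at 88.2, 90 and 55.2. It was thus among the higher peaks of most lists, lowest in WT-iMOS T1 replicate 3. The authors' fold enrichment was 5.01 for the Bcl11a peak, and for Spi1 ran from 7.10 to 12.9 in KO-iMOS and from 5.51 to 14.8 in WT-iMOS. The 10 Spi1 summits spanned 87 bp. Bcl11a against Spi1 did not pass here (Fisher's exact test, adjusted p = 0.142). It passed where the single Bcl11a peak drops out, which is without Bcl11a T2 replicate 3 (Fisher's exact test, adjusted p = 0.0449) or with peaks at a −log10 q of at least 5 only (adjusted p = 0.0341). It did not with lists of equal length (difference -0.67, Fisher's exact test, adjusted p = 0.284) or with regions of a single library added (adjusted p = 0.237).

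The other H2-Aa regions were called in fewer libraries. H2-Aa region 1, at chromosome 17, 34280550 to 34281242, sits 1502 bp below the gene. Bcl11a was called there in 1 of 3 T2 and 2 of 3 T1 libraries, and Spi1 in 0 of 2 KO-iMOS T2, 1 of 2 KO-iMOS T1, 0 of 3 WT-iMOS T2 and 1 of 3 WT-iMOS T1 libraries. Bcl11a thus reached more libraries than Spi1 in WT-iMOS, 3 of 6 against 1 of 6, a difference that did not pass (Fisher's exact test, adjusted p = 0.907). The Bcl11a peaks ranked at percentiles 56.9, 64.9 and 0.520, and the Spi1 peaks at 8.16 in KO-iMOS T1 replicate 1 and 46.3 in WT-iMOS T1 replicate 3. This region chains 5 partly overlapping peaks with summits from 34280780 to 34281218. H2-Aa region 2, at 34287622 to 34287982, covers the promoter end of the gene, and Spi1 was called there only in KO-iMOS T2 replicate 1. That peak covered 159 of the 250 printed bases, with its summit 43 bases before the start.

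H2-Eb1 (chromosome 17, 34305867 to 34316674), the I-E beta chain gene, had no peak at its locus in any of the 16 libraries, as did 33.4% of all genes. The nearest region was H2-Aa region 3, 11706 bp from the gene and just beyond the 10 kb limit.

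**Figure D2:**
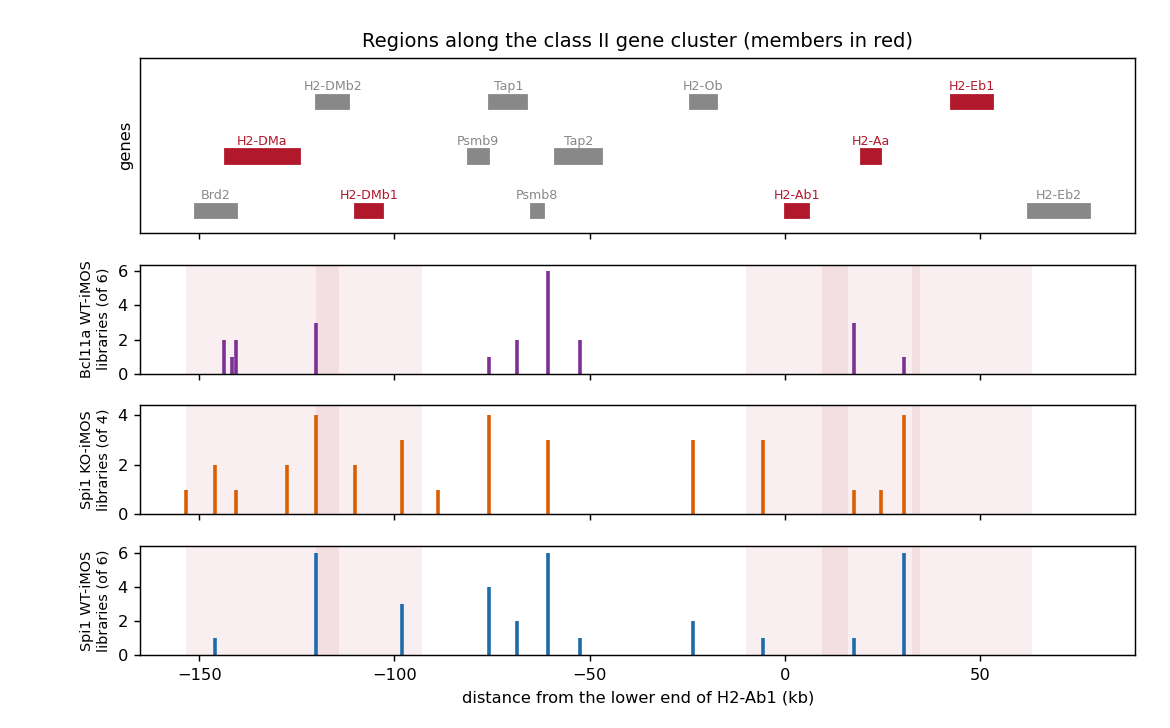
Genes of the class II cluster on chromosome 17 (members in red) above the number of libraries with a peak at each merged region, for Bcl11a WT-iMOS, Spi1 KO-iMOS and Spi1 WT-iMOS, against distance in kb from the lower end of H2-Ab1. Shading marks the members' loci. The tall Spi1 lines at H2-DMb2 and between H2-Aa and H2-Eb1 stand for all 4 KO-iMOS and all 6 WT-iMOS libraries.

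H2-DMa (chromosome 17, 34119693 to 34139101) and H2-DMb1 (34153191 to 34160229) encode the chains of H2-M. Their loci share a region at chromosome 17, 34142617 to 34143782, 3516 bp from H2-DMa and 9409 bp from H2-DMb1, across the lower end of the neighbouring H2-DMb2, which encodes another H2-M beta chain. It cannot be assigned to one of the 3 genes from these data. Bcl11a was called in 1 of 3 T2 and 2 of 3 T1 libraries, at percentile 0.956 in T2 and at 43.7 and 68.4 in T1. Spi1 was called in 2 of 2 KO-iMOS T2, 2 of 2 KO-iMOS T1, 3 of 3 WT-iMOS T2 and 3 of 3 WT-iMOS T1 libraries. Spi1 peaks ranked at percentiles 29.6 and 16.1 in KO-iMOS T2 and at 82.2 and 68.9 in KO-iMOS T1. In WT-iMOS T2 they ranked at 86.7, 71.5 and 37.2, and in WT-iMOS T1 at 89.6, 82.3 and 73.7. The KO-iMOS T2 peaks were the lowest of the Spi1 peaks, below every KO-iMOS T1 and WT-iMOS Spi1 peak. Bcl11a against Spi1 in WT-iMOS did not pass (Fisher's exact test, adjusted p = 0.607). With Spi1 in every library, these counts allow no smaller p, so the test could not pass here. Spi1 summits were spread over 504 bp. A Bcl11a peak (T1 replicate 2) and a Spi1 peak (WT-iMOS T2 replicate 3) end before the H2-DMb1 locus begins, so H2-DMb1 itself counted 2 of 6 libraries for Bcl11a and 5 of 6 for Spi1 in WT-iMOS.

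Presence at this region changed with list length. With each list shortened to its 2605 strongest peaks on chromosomes, the number in the shortest list, Spi1 was called there in 0 of 4 libraries from KO-iMOS and 5 of 6 from WT-iMOS (Fisher's exact test, adjusted p = 0.289), against 4 of 4 and 6 of 6 with full lists (adjusted p = 1). In the same shortened lists H2-Aa region 3 was called in 4 of 4 libraries from KO-iMOS and 5 of 6 from WT-iMOS, Cd74 region 1 in 4 of 4 and 5 of 6, and Cd74 region 2 in 4 of 4 and 6 of 6. In each of the 4 KO-iMOS lists the Spi1 peak at H2-DMb2 ranked below those at the other 3 of these regions, as it did in 2 of the 6 WT-iMOS lists.

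H2-DMa had 6 further regions, none in more than 3 libraries. Its annotated body overlaps that of Brd2, a chromatin reader gene, and regions 3 to 5 lie in both genes. Bcl11a alone was called at region 3 (34119104 to 34119994, 0 of 3 T2 and 2 of 3 T1) and region 4 (34121277 to 34121639, 0 of 3 T2 and 1 of 3 T1). Region 3 reaches a promoter window of Brd2 and none of H2-DMa. Region 5 (34122348 to 34122757) reaches promoter windows of both H2-DMa and Brd2, and held Bcl11a in 1 of 3 T2 and 1 of 3 T1 libraries and Spi1 in KO-iMOS T1 replicate 1. Spi1 without Bcl11a was called at region 1 (34109603 to 34109861, KO-iMOS T1 replicate 2), at region 2 inside Brd2 (34116982 to 34117487, 1 KO-iMOS T2, 1 KO-iMOS T1 and 1 WT-iMOS T1 library) and at region 6 inside H2-DMa (34135478 to 34135854, 1 KO-iMOS T2 and 1 KO-iMOS T1 library). Of the 7 regions of the H2-DMa locus, the shared one was thus the only region in at least 4 libraries.

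H2-DMb1 had 2 regions of its own. Region 1, at chromosome 17, 34152881 to 34153561, covers its start and all 250 printed bases. Spi1 was called there in KO-iMOS T2 replicate 1 and KO-iMOS T1 replicate 1, the KO-iMOS libraries with the longest lists, and in 0 of 6 WT-iMOS libraries. The summits lay 58 bases before and 192 bases after the start. Region 2 spanned 34164996 to 34165533, in no gene and 4767 bp beyond the other end of H2-DMb1. Bcl11a was called there in 0 of 6 libraries, and Spi1 in 1 of 2 KO-iMOS T2, 2 of 2 KO-iMOS T1, 1 of 3 WT-iMOS T2 and 2 of 3 WT-iMOS T1 libraries. Its Spi1 peaks ranked from percentile 37.5 to 71.3 in KO-iMOS and from 60.1 to 82.9 in WT-iMOS.

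Cd74 (chromosome 18, 60803849 to 60812652), the invariant chain gene, was the only member with 2 regions that held Spi1 in all 10 libraries, both inside the gene body. Region 1, at 60805586 to 60806359, had Bcl11a in 0 of 6 libraries, and Spi1 in 2 of 2 KO-iMOS T2, 2 of 2 KO-iMOS T1, 3 of 3 WT-iMOS T2 and 3 of 3 WT-iMOS T1 libraries. It ranked at percentiles 92.8 and 84.9 in KO-iMOS T2, 92.4 and 88.8 in KO-iMOS T1, 83.7, 76.3 and 42.2 in WT-iMOS T2, and 77.8, 70.8 and 70.4 in WT-iMOS T1. Bcl11a against Spi1 in WT-iMOS passed here (difference in share of libraries -1, Fisher's exact test, Benjamini-Hochberg adjusted p = 0.0461, 0 of 6 Bcl11a and 6 of 6 Spi1 libraries). It was the only member region to pass, where 4.53% of 13637 regions passed with Bcl11a lower and 0.161% with Bcl11a higher. With these libraries Fisher's exact p cannot go below 0.00216, which takes a full split of 0 of 6 against 6 of 6. The next smallest p, that of H2-Aa region 3, had an adjusted p of 0.142, so only full splits could pass. The Cd74 region 1 call was lost with lists of equal length (difference -0.83, 0 of 6 Bcl11a and 5 of 6 Spi1 libraries, Fisher's exact test, adjusted p = 0.0876). It was also lost when regions with a peak in a single library were tested too (difference -1, Fisher's exact test, adjusted p = 0.0771). Bcl11a lists held 2719 to 7382 peaks and WT-iMOS Spi1 lists 5068 to 12261.

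Cd74 region 2, at 60806903 to 60807896, had Bcl11a in 0 of 3 T2 and 3 of 3 T1 libraries, at percentiles 40.0, 20.6 and 38.2. Spi1 was called in 2 of 2 KO-iMOS T2, 2 of 2 KO-iMOS T1, 3 of 3 WT-iMOS T2 and 3 of 3 WT-iMOS T1 libraries. Its Spi1 peaks ranked at percentiles 95.6 and 68.8 in KO-iMOS T2, 98.3 and 96.4 in KO-iMOS T1, 95.7, 88.9 and 90.4 in WT-iMOS T2, and 95.3, 93.4 and 87.8 in WT-iMOS T1. KO-iMOS T2 replicate 2 was the lowest of the 10. Of the 10 Spi1 summits 8 lay within 10 bp of their median, position 60807380.5. The Bcl11a summits lay 90.5 to 238.5 bp from the Spi1 median. T2 against T1 over all 16 libraries did not pass at this region (exact stratified test, p = 0.1, adjusted p = 1), where 0.1 is the smallest p that test can give with Spi1 in all 10 libraries. Nor did Bcl11a against Spi1 (Fisher's exact test, adjusted p = 0.607), which likewise stood at the smallest p its counts allow. The Bcl11a T2 lists held 2719 to 4786 peaks and the T1 lists 4300 to 7382, and with lists of equal length 1 of the 6 Bcl11a libraries kept a peak there.

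**Figure D3:**
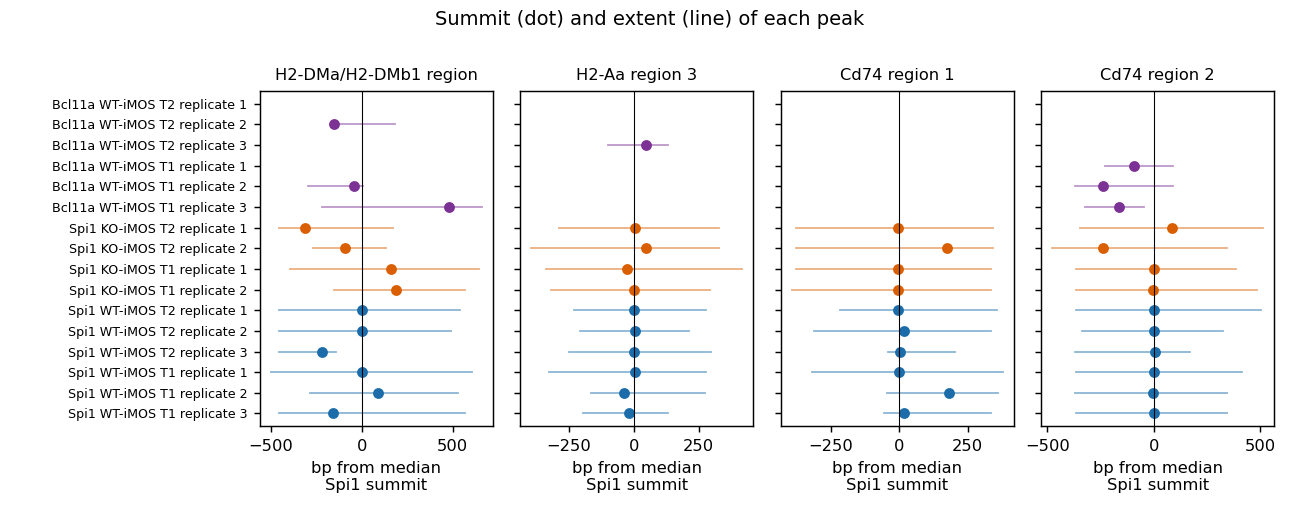
Summit (dot) and extent (line) of each peak, in bp from the median Spi1 summit, at the 4 regions with Spi1 in all 10 libraries, with 1 row per library from Bcl11a WT-iMOS at the top through Spi1 KO-iMOS to Spi1 WT-iMOS. Spi1 summits spread over 504 bp at the region shared by H2-DMa and H2-DMb1 and over 87 bp at H2-Aa region 3.

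Ciita (chromosome 16, 10480014 to 10531064), the coactivator on which class II transcription depends, had 1 peak in 1 library. Spi1 was called inside the gene at chromosome 16, 10516238 to 10516525, in KO-iMOS T1 replicate 2, at percentile 12 of its list. Bcl11a was called in 0 of 6 libraries and Spi1 in 0 of 6 WT-iMOS libraries. Whether a region is bound in few cells or weakly in many cannot be told apart in these lists.

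Between KO-iMOS and WT-iMOS, no member gene and none of the 10 member regions tested passed for Spi1. The other 6 regions had Spi1 in fewer than 2 libraries. At gene level, 0 of 21887 genes had an adjusted p under 0.05 by Fisher's exact test (0% higher, 0% lower), and at an unadjusted p under 0.05 there were 1829 genes higher (8.36%) and 194 lower (0.886%). None of the 7 members was among those, and the smallest p was that of H2-Ab1 (p = 0.19 by Fisher's exact test, adjusted p = 0.813, 3 of 4 KO-iMOS against 1 of 6 WT-iMOS libraries). Of 19539 regions 0 were called, and at an unadjusted p under 0.05 there were 3005 higher (15.4%) and 761 lower (3.89%), none of them at a member region. With these libraries p cannot go below 0.00476, and at most members it could not come near that. H2-Aa, H2-DMa and Cd74 had Spi1 in all 10 libraries and H2-Eb1 in 0, so this test could show no difference there. H2-DMb1 lacked Spi1 in 1 library and Ciita had it in 1, which leaves little room for a difference. Of the member regions tested, 4 held Spi1 in all 10 libraries. Of the 16 regions, 6 had Spi1 in KO-iMOS and not in WT-iMOS (38.1% of all 34234 regions) and 0 the reverse (21.1% of all regions). Each of the 6 was called in 1 or 2 of the 4 KO-iMOS libraries, and none was kept with lists of equal length.

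The KO-iMOS lists differed from the WT-iMOS lists in other ways beside these counts. They held 6372 to 20241 peaks against 5068 to 12261, and their narrowest peak measured 250 to 321 bp against 202 to 220 bp. Genotype and these list properties cannot be told apart. A Bcl11a library called 1 to 5 of the 16 regions. Each KO-iMOS library called 4 to 11 of the 16 regions (8.25 ± 3.10, SD, n = 4) and each WT-iMOS library 4 to 7 (5 ± 1.1, SD, n = 6). Per 1000 regions called in the same library, this was 0.509 ± 0.192 for Bcl11a (SD, n = 6), 0.620 ± 0.0544 for Spi1 in KO-iMOS and 0.665 ± 0.144 for Spi1 in WT-iMOS, and the 3 groups overlap.

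**Figure D4:**
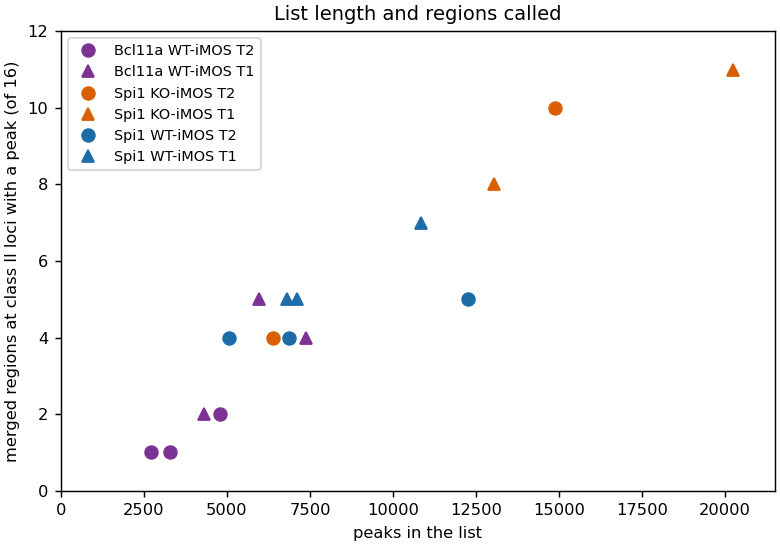
Each point is a library, with the number of peaks in its list on the x axis and the number of the 16 class II regions with a peak on the y axis. Colours mark Bcl11a WT-iMOS, Spi1 KO-iMOS and Spi1 WT-iMOS, circles T2 and triangles T1. The longest list, of 20241 peaks, called 11 regions, and the shortest, of 2719 peaks, called 1.

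For Bcl11a against Spi1 in WT-iMOS, 0 of 21887 genes passed after adjustment (Fisher's exact test, background 0%). With these libraries Fisher's exact p cannot go below 0.00216. Genes at that p had an adjusted p of 0.162, so even a full split of the libraries did not pass over genes. At an unadjusted p under 0.05, 59 genes were higher (0.27%) and 798 lower (3.65%) for Bcl11a, with no member among them. Over regions the unadjusted counts were 82 higher (0.601%) and 1376 lower (10.1%), and 2 of the 8 member regions tested, H2-Aa region 3 and Cd74 region 1, were among the lower. The other member regions tested could not have been, given how few or how many libraries held a peak. A further 8 had a peak in fewer than 2 of the compared libraries and were not tested. The smallest p among members was that of Cd74 (Fisher's exact p = 0.182, adjusted p = 1, 3 of 6 Bcl11a and 6 of 6 Spi1 libraries). With Spi1 in 6 of 6 libraries, Cd74, H2-Aa and H2-DMa stood at the smallest p their counts allow (Fisher's exact p = 0.455 for the last 2). H2-Ab1, H2-Eb1 and Ciita had too few peaks for any difference. Among members only H2-DMb1 had counts that could have given a p under 0.05. Of the 16 regions 5 carried both factors in at least 1 library (28.4% of all regions), 2 Bcl11a alone (8.46%) and 9 Spi1 alone (63.1%), shares near those of the genome. T2 against T1 called 0 of 21887 genes and 0 of 21649 regions by the exact stratified test (background 0%), with 9 genes higher (0.0411%) and 194 lower (0.886%), and 25 regions higher (0.115%) and 194 lower (0.896%), at an unadjusted p under 0.05. No member was among them. No member gene could have been: Cd74 stood at p = 0.1 (exact stratified test), the smallest its counts allow, and the other members had less room. Of the 16 member regions 12 were tested. The smallest p the exact stratified test could give was 0.025 at H2-Aa region 1. At the other tested member regions it was 0.05 or more, so these could not have been among them. In KO-iMOS the T2 libraries made 14 region calls at the class II loci and the T1 libraries 19, with 2 libraries each. In WT-iMOS the Bcl11a calls numbered 4 in T2 and 11 in T1, and the Spi1 calls 13 in T2 and 17 in T1, with 3 libraries each. Per 1000 regions called in the same library, the KO-iMOS T2 libraries stood at 0.679 and 0.633 and the T1 libraries at 0.547 and 0.620, so the order of the counts did not hold there. For Bcl11a these rates were 0.318 to 0.437 in T2 and 0.489 to 0.863 in T1, and for Spi1 in WT-iMOS 0.417 to 0.825 in T2 and 0.661 to 0.760 in T1.

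Related lists give the setting, read against the 25.3%, 49.8% and 33.5% of all genes that reached 2 or more libraries of Bcl11a WT-iMOS, Spi1 KO-iMOS and Spi1 WT-iMOS. Of 4 accessory class II genes, Bcl11a reached that count at 2, and Spi1 at 4 in KO-iMOS and 4 in WT-iMOS. H2-DMb2 had Bcl11a in 3 of 6 libraries and Spi1 in 4 of 4 from KO-iMOS and 6 of 6 from WT-iMOS. These counts equal those of the region shared by H2-DMa and H2-DMb1, which lies in the H2-DMb2 locus too, so they repeat member peaks. H2-Oa, a chain of the H2-M inhibitor H2-O, showed Bcl11a in 1 of 6 and Spi1 in 4 of 4 and 6 of 6. H2-Ob, the other H2-O chain, showed Bcl11a in 0 of 6 and Spi1 in 3 of 4 and 2 of 6, and H2-Eb2 showed Bcl11a in 4 of 6 and Spi1 in 3 of 4 and 5 of 6.

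Among 11 transcription factor genes of the class II pathway, Bcl11a reached that count at 4, and Spi1 at 11 in KO-iMOS and 5 in WT-iMOS. Irf1, an interferon-response factor that acts on Ciita, had Bcl11a in 5 of 6 libraries and Spi1 in 4 of 4 from KO-iMOS and 6 of 6 from WT-iMOS. Nfya, an NF-Y subunit, showed Bcl11a in 6 of 6 and Spi1 in 4 of 4 and 5 of 6. Rfxank, an RFX subunit, showed Bcl11a in 0 of 6 and Spi1 in 4 of 4 and 6 of 6. For Creb1 the counts were 3 of 6 for Bcl11a, and 4 of 4 and 4 of 6 for Spi1, for Irf4 0 of 6, and 4 of 4 and 3 of 6, and for Rfxap 2 of 6, and 3 of 4 and 1 of 6. None of the 11 passed in KO-iMOS against WT-iMOS after adjustment. At an unadjusted p under 0.05, 4 were higher in KO-iMOS, Nfyc, Irf8, Nfyb and Rfx5, against 8.36% of all genes, and these 4 were named after their values were seen. Nfyc had Spi1 in 4 of 4 KO-iMOS libraries against 1 of 6 in WT-iMOS, and the other 3 in 3 of 4 against 0 of 6.

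Of 9 genes of peptide loading and turnover, 3 reached that count for Bcl11a, and 8 for Spi1 in KO-iMOS and 6 in WT-iMOS. The protease gene Ctss and the thiol reductase gene Ifi30 each had Bcl11a in 2 of 6 libraries and Spi1 in 3 of 4 from KO-iMOS and 2 of 6 from WT-iMOS. The protease gene Ctsb showed Bcl11a in 1 of 6 and Spi1 in 3 of 4 and 2 of 6. Lgmn, another protease, and Cd83, which stabilises surface class II, each showed Bcl11a in 0 of 6 and Spi1 in 3 of 4 and 4 of 6. Marchf1, a ligase that turns over class II, showed Bcl11a in 1 of 6 and Spi1 in 4 of 4 and 2 of 6.

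Of 5 costimulation genes, 1 reached that count for Bcl11a, and 3 for Spi1 in KO-iMOS and 3 in WT-iMOS. Icosl, the ICOS ligand, had Bcl11a in 6 of 6 libraries and Spi1 in 4 of 4 from KO-iMOS and 6 of 6 from WT-iMOS. Cd80 and Cd86, the CD28 ligands, showed Bcl11a in 0 of 6 and Spi1 in 4 of 4 and 5 of 6 each. Cd40 had Spi1 in 1 KO-iMOS library, and Cd274 had no peak.

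Class I presentation genes reached that count at 8 of 11 in each of the 3 groups. Tap1, Tap2, Psmb8 and Psmb9, peptide transporter and immunoproteasome genes that lie inside the class II cluster with overlapping loci, had Bcl11a in 6, 6, 6 and 3 of 6 libraries. Spi1 was called there in 4, 3, 3 and 4 of 4 from KO-iMOS and in 6, 6, 6 and 5 of 6 from WT-iMOS. Tapbp showed Bcl11a in 3 of 6 and Spi1 in 4 of 4 and 6 of 6, and H2-D1 showed Bcl11a in 2 of 6 and Spi1 in 4 of 4 and 6 of 6.

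**Figure D5:**
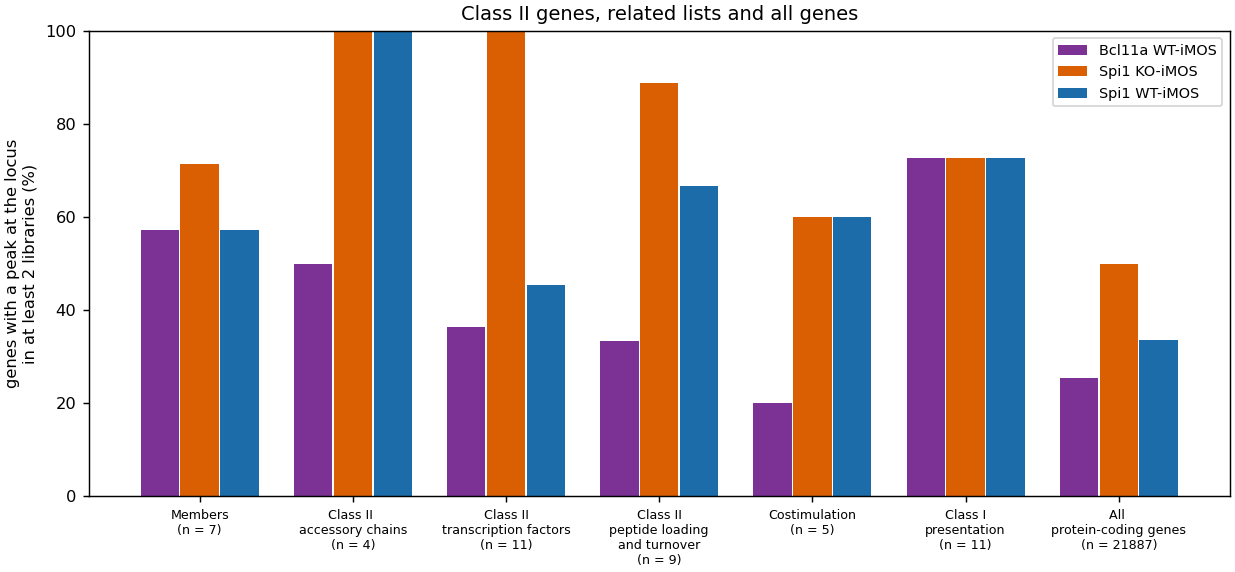
Bars give the percentage of genes that hold a peak in 2 or more libraries of Bcl11a WT-iMOS, Spi1 KO-iMOS and Spi1 WT-iMOS for the 7 members, 5 related lists and all 21887 protein-coding genes. The members stand at 57.1%, 71.4% and 57.1% and all genes at 25.3%, 49.8% and 33.5%.

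Genes on other chromosomes with the most similar pattern of presence over the 16 libraries were many for members with simple patterns. For Cd74 104 genes had the identical pattern, and Cuedc2 and Tgfb1i1 were nearest in locus length. H2-Ab1 had 79 such genes (Nat14 and Nudcd2 nearest) and Ciita 129 (Esf1 and Fundc1). Fewer were found for H2-DMa, with 7 (Kif9 and Adap1), and for H2-Aa, with 2 (Mrvi1 among them). H2-DMb1 had 1 identical gene, Clpx, and Cdca5 differed in 1 library.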

How the data were processed

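The authors deposited a narrowPeak list per library, 131939 peaks in all. Bowtie2, SAMtools, MACS2 and mm10 are named in the submitters' processing notes, without versions; whether a control was used is not stated in the labels. Each deposited line gives position and summit, a score, a fold enrichment (ratio over local background), and a −log10 p-value and q-value. These are the authors' own values, used only to describe, rank or filter peaks within a list. Read depth is unknown, so no counting interval is given; the number of libraries limits precision. Peaks were not filtered for artefact regions.

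Gene bodies came from a RefSeq table on GRCm38.p6, the assembly named mm10, which gives no strand or exons. A gene was scored present in a library with at least 1 peak overlapping its locus. Peaks of all 16 lists were joined at 1 bp. Presence was compared by Fisher's exact test, and T2 against T1 by an exact test within target and genotype, all two-sided, with Benjamini-Hochberg adjustment over all genes, or over all regions with a peak in at least 2 compared libraries, threshold 0.05. Tests were checked on simulated data. Work was done in Python 3.11.15 with pandas 2.3.3, matplotlib 3.10.9, scipy 1.17.1 and numpy 2.4.6. Alternatives were a −log10 q of at least 5, equal list lengths, windows of 100 bp around summits, flanks of 2 and 50 kb, other region filters, strata of T or replicate number, and leaving out each library.

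The members and lists were chosen with earlier results of these data known. All members are named, with their 7 regions in at least 4 libraries; the other 9 regions were to be given by counts, and their positions were added after their values were seen. Further named were up to 6 genes per related list, by libraries with a peak, and up to 2 genes of similar pattern per member. The other genes of these lists were counted only, 1 gene that the rule would name is not reported here, and H2-Ea was not among the protein-coding genes.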

Additional observations from a re-analysis of the deposited data

Results flagged for a closer look

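In 35 sets of values, over the libraries of a target and genotype, 12 had a library far from the rest by Dixon's test, where chance gives about 1 in 20. Counts of peaks per locus are small whole numbers, so a single differing library is enough.

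Spi1 KO-iMOS T2 replicate 2, which has the shortest KO-iMOS list, stood apart at percentile 79.4 at H2-Aa region 3, at percentile 68.8 at Cd74 region 2, and with 0 peaks at the H2-Ab1 locus. Spi1 KO-iMOS T1 replicate 2 held 1 peak at the Ciita locus. Spi1 WT-iMOS T1 replicate 1 called 7 of the 16 regions, with 1 peak at the H2-Ab1 locus and 2 at the H2-DMa locus. Spi1 WT-iMOS T2 replicate 3, the shortest WT-iMOS Spi1 list, was low at the region shared by H2-DMa and H2-DMb1, at percentile 37.2 and with a width of 313 bp, and at Cd74 region 1, at percentile 42.2. Spi1 WT-iMOS T1 replicate 3 was low at H2-Aa region 3, at percentile 55.2, and held 2 peaks at the H2-Aa locus.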

How the results depend on the processing

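The 16 regions numbered 9 with lists of equal length, 10 with a flank of 2 kb and 37 with a flank of 50 kb. Members with Spi1 in at least 2 KO-iMOS libraries numbered 3 with lists of equal length (12.2% of all genes), against 5 (49.8%), and those with Spi1 in at least 2 WT-iMOS libraries 1 with a flank of 2 kb (25.7%), against 4 (33.5%). The 640 regions called for Bcl11a against Spi1 became 0 under the replicate block and 0 when regions with a peak in 1 library were also tested. More regions are tested in the second case, and the first allows few outcomes from 6 numbered libraries per target. Under the replicate block the Cd74 region 1 call had an adjusted p of 0.585. Deviations of same-numbered libraries correlated at -0.0973 to 0.0213 between targets and -0.0226 to 0.034 between genotypes. Between T2 and T1 they correlated at 0.0104 to 0.166, where all 8 pairs were positive but not all over 0.1. The 2 KO-iMOS pairs share 1 value, since deviations in a group of 2 libraries mirror each other. These values do not settle whether T2 and T1 numbers pair, and the tests did not take numbers as pairs. The replicate block left 0 calls in the other comparisons. Between genotypes it compares 2 against 2 libraries at each of 2 replicate numbers, too few for any p under 0.05.

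Differences in share of libraries turned sign, with no call either way and the cause not tested, at the H2-DMb1 locus for KO-iMOS against WT-iMOS (-0.0833 with a −log10 q of at least 5 and -0.833 with equal lists, against 0.167), at H2-Aa region 1 for the same comparison (-0.167 at that q, against 0.0833, and -0.167 to 0.25 with each library left out, lowest without KO-iMOS T1 replicate 1), at H2-DMb1 region 2 (-0.333 with equal lists, against 0.25), and with a flank of 2 kb for Bcl11a against Spi1 at H2-Aa (0.333) and H2-DMa (0.5), against -0.333 at both. Leaving out each library kept 14 to 16 regions and 640 to 881 calls for Bcl11a against Spi1. The lists hold no reads, so a region not called may lie under the threshold.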

Other observations

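Across the genome 1495 regions had Spi1 in all 10 Spi1 libraries. Bcl11a was called in 0 libraries at 33.8% of them, in at least 3 at 35.7% and in all 6 at 13.5%. Just beyond the Cd74 locus, 12918 bp from the gene, a region at chromosome 18, 60789293 to 60790931, had Bcl11a in 4 of 6 libraries and Spi1 in 3 of 4 libraries from KO-iMOS and 6 of 6 from WT-iMOS. Another, 17904 bp from Cd74 at 60830556 to 60831353, had Bcl11a in 0 of 6 libraries and Spi1 in 4 of 4 libraries from KO-iMOS and 0 of 6 from WT-iMOS. Both were named after their values were seen. Between KO-iMOS and WT-iMOS 0 of 19539 regions passed for Spi1 (Fisher's exact test, smallest adjusted p = 0.107). At an unadjusted p under 0.05, 3005 regions (15.4%) were higher in KO-iMOS, so such a pattern is not particular to this place.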
